A study of Caenorhabditis elegans with 20 samples.

Results

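The 10 genes described here encode enzymes of the *C. elegans* methionine cycle and of the methylation route to phosphatidylcholine. They were chosen by gene symbol, with earlier results of these data known. All 10 of 10 were found among the 46284 genes of the deposited FPKM table, each above 0 in every one of the 20 samples. RNA came from whole worms on day 1 of adulthood, kept at 20 °C on OP50 bacteria, in 5 strains with 4 replicates each. The mutant strains were *ivd-1(tm6784)*, which carries a mutation in isovaleryl-CoA dehydrogenase of leucine breakdown, *bcat-1(hh58)*, a mutant of the branched-chain aminotransferase that starts the breakdown of leucine, isoleucine and valine, the strain with both alleles, *ivd-1(tm6784); bcat-1(hh58)*, called the double mutant from here on, and *hecd-1(tm2371)*, a mutant of an E3 ubiquitin ligase. All strains derive from Bristol N2 and were outcrossed, and by the study's methods the mutants and wild-type of an experiment came from one cross where that could be done. By the study's methods the *bcat-1(hh58)* allele was made by CRISPR-Cas9 and puts a stop codon and a frameshift into the first exon, and worms that develop late were collected by their own generation time. The question asked here is how the transcripts of these enzymes differed between these mutants and wild-type.

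In the methionine cycle, S-adenosylmethionine synthetases join methionine and ATP into S-adenosylmethionine, the methyl donor of the cell. Each methyl transfer leaves S-adenosylhomocysteine, which the hydrolase AHCY-1 splits into homocysteine and adenosine. Methionine synthase METR-1, a vitamin B12 enzyme kept active by the reductase MTRR-1, turns homocysteine back into methionine with a methyl group that the reductase MTHF-1 makes on folate. In the nematode a large use of S-adenosylmethionine is the making of phosphatidylcholine, in which PMT-1 adds the first methyl group to phosphoethanolamine and PMT-2 adds the following ones. Loss of *sams-1* in this animal is known to lower phosphatidylcholine and to activate the lipogenic factor SBP-1.

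By the WBcel235 annotation (Ensembl release 115) the genes lie on 5 chromosomes, all are protein-coding, and coordinates refer to the whole gene. *sams-1* (WBGene00008205) is at chrX:11965962-11969893 on the plus strand, on the same chromosome as the *bcat-1* locus (chrX:12877480-12880328). *sams-3* (WBGene00015538, chrIV:5848657-5850843, plus) and *sams-4* (WBGene00015540, chrIV:5844061-5846369, minus) lie head to head with 2287 bases between them. Both of them and *sams-5* (WBGene00006416, chrIV:6277433-6279522, minus) lie on the same chromosome as the *ivd-1* (chrIV:5086856-5088864) and *hecd-1* (chrIV:7134345-7144720) loci. *metr-1* (WBGene00010988, chrII:10926561-10931078, plus), *mtrr-1* (WBGene00006510, chrII:9285975-9289132, plus), *mthf-1* (WBGene00015512, chrII:7773904-7777823, minus) and *pmt-1* (WBGene00022781, chrII:5278090-5282523, minus) share chromosome II. *ahcy-1* (WBGene00019322) is at chrI:6836469-6838140 on the plus strand and *pmt-2* (WBGene00018811) at chrV:4628580-4635263 on the plus strand. *sams-3* and *sams-4* are close paralogs, so how the counting divided reads between them is uncertain. Of the genes that overlap a member, C06E7.4 covers 18 exonic bases of *sams-3* and C06A8.6 covers 11 of *mthf-1*, both on the opposite strand, and the libraries were stranded.

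FPKM, fragment counts scaled by transcript length and by the total of mapped fragments, summed to between 1004157 and 1136133 per sample, and the depth of the samples relative to each other, read from low values, lay between 0.889 and 1.09. Read numbers were not given in the sources used here. The *hecd-1* transcript lay between 21.5 and 23.3 FPKM in *hecd-1(tm2371)* and between 32.2 and 34.4 FPKM in the other strains. The *ivd-1* transcript was lower in both strains with *ivd-1(tm6784)* than in the matching strains without it. Its mean in *bcat-1(hh58)*, 126 FPKM, was also below those of *ivd-1(tm6784)*, 155 FPKM, and wild-type, 217 FPKM. The *ivd-1* level alone therefore does not check the *ivd-1(tm6784)* label. The *bcat-1* transcript was higher in *bcat-1(hh58)* than in wild-type and does not check that label. Markers of several tissues differed between strains. Of 6 larval molting genes, 5 were higher in *ivd-1(tm6784)* worms, 6 in *bcat-1(hh58)* and 5 in the double mutant than in wild-type by limma, and of 24 germline genes 16 were higher in *hecd-1(tm2371)* while 10 were lower in *bcat-1(hh58)*. All 8 neuron markers were higher in both single mutants, with summed levels between 127 and 144 FPKM in *ivd-1(tm6784)* worms, between 117 and 149 FPKM in *bcat-1(hh58)* worms and between 92.4 and 102 FPKM in wild-type. In whole worms, fewer cells of a type and less RNA per cell cannot be told apart.

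FPKM are scaled by transcript length, so levels can be set beside each other between genes. The *ahcy-1* transcript was the most abundant of the 10 in every strain, with a mean of 1821 ± 92.9 FPKM in wild-type (SD, n = 4), rank 119 of all genes, followed by *pmt-2* at 737 ± 34.5, *sams-1* at 256 ± 21.9 and *pmt-1* at 221 ± 13.9 FPKM. *mthf-1* averaged 134 ± 2.61 FPKM, *sams-3* 82.7 ± 1.46, *metr-1* 76.1 ± 5.56 and *mtrr-1* 71.6 ± 1.51 FPKM in wild-type. The wild-type ranges of neighbours in this order overlapped for *sams-1* and *pmt-1*, for *sams-3* and *metr-1*, and for *metr-1* and *mtrr-1*, and did not overlap for the others. *sams-4* averaged 47.4 ± 1.73 FPKM and *sams-5*, the least abundant, 18.7 ± 4.18 FPKM. The coefficient of variation among the 4 wild-type samples was 1.77% for *sams-3* and 22.3% for *sams-5*, the tightest and the widest of the 10.

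**Figure D1:**
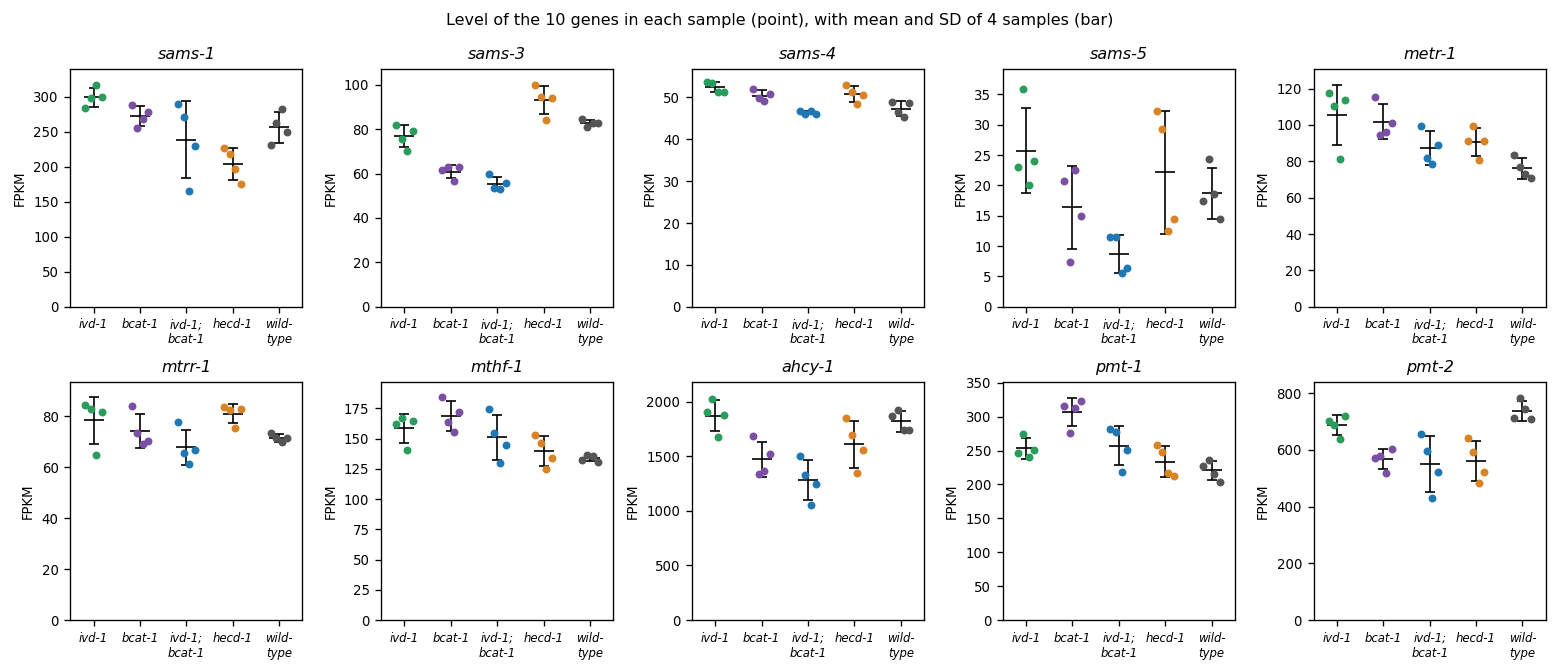
Level of each of the 10 genes in FPKM (y axes, from 0) in the 20 samples by strain (x axes, mutant strains left of wild-type), with 1 point per sample and a bar for the mean and SD of 4 samples. *sams-3* and *pmt-2* lie lower in *bcat-1(hh58)* and in the double mutant than in every wild-type sample, and *pmt-1* lies higher in *bcat-1(hh58)* than in every wild-type sample.

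Against wild-type, the enzymes of the cycle moved in both directions within one strain. limma was fitted to log2(FPKM + 0.5) of 15957 genes, with p-values adjusted over all of them and a call at an adjusted p of 0.05 or less. In *bcat-1(hh58)* 7 of the 10 genes differed, 4 higher and 3 lower, where 44.2% of all tested genes differed, 33.9% higher and 10.3% lower. In the double mutant 5 differed, 1 higher and 4 lower, against a background of 38.3% of genes, 26.4% higher and 11.9% lower. In *ivd-1(tm6784)* 3 differed, all higher, where 22.8% of genes differed, 19.9% higher and 2.88% lower. In *hecd-1(tm2371)* 2 differed, 1 in each direction, at a background of 21.1%, 14.0% higher and 7.15% lower.

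Large parts of the transcriptome differed in each comparison, so the counts are to be read beside these shares. The median log2 fold change of the 10 genes was 0.17 in *ivd-1(tm6784)* worms, 0.069 in *bcat-1(hh58)*, -0.11 in the double mutant and 0.09 in *hecd-1(tm2371)*, beside 0.11, 0.17, 0.098 and 0.08 over all tested genes. Since most genes lay a little above 0, the scaling of the samples matters for small changes: median-of-ratios scaling shifted the median of all genes in *bcat-1(hh58)* by -0.16, and quantile normalization by -0.30. Quantile normalization also shifted that median by -0.21 in *ivd-1(tm6784)*, by -0.11 in the double mutant and by 0.17 in the double mutant against *bcat-1(hh58)*, and the median interaction shifted by 0.18 and 0.39 under these scalings. One of the 4 genes counted higher in *bcat-1(hh58)*, *sams-4*, turned direction under median-of-ratios scaling and passed as lower there. The calls of *metr-1* and *mthf-1* in *bcat-1(hh58)* were lost under that scaling. The FPKM ranges of the 4 and 4 samples did not overlap for 4 members in *ivd-1(tm6784)* worms, 7 in *bcat-1(hh58)*, 4 in the double mutant and 3 in *hecd-1(tm2371)*, beside 34.0%, 38.2%, 38% and 29.1% of all tested genes.

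**Figure D2:**
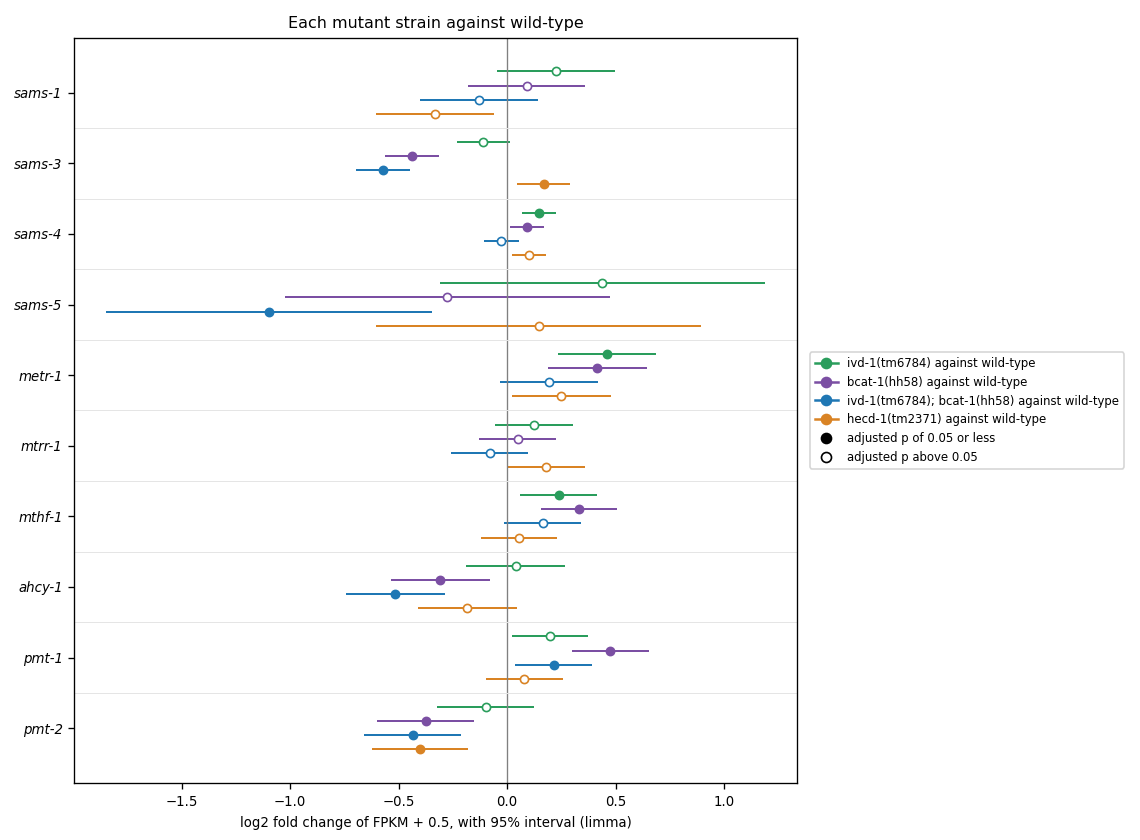
Log2 fold change of log2(FPKM + 0.5) for the 10 genes (rows) in the 4 mutant strains against wild-type (colours), with the 95% interval of the limma fit. Filled points passed an adjusted p of 0.05, and the widest intervals are those of *sams-5*, whose samples varied most within strains.

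The S-adenosylmethionine synthetases did not move as a group. *sams-3* fell in both strains that carry *bcat-1(hh58)*, while *sams-5* passed as lower in the double mutant and *sams-1* in neither of them. *sams-3* was measured at 61.5, 62.9, 56.5 and 62.8 FPKM in replicates 1 to 4 of *bcat-1(hh58)*, at 59.7, 53.3, 53.0 and 55.9 in the double mutant, and at 84.5, 80.9, 82.6 and 82.7 in wild-type. All 8 samples with *bcat-1(hh58)* lay below all 4 wild-type samples. The log2 fold change was -0.44, SE 0.056, adjusted p = 6.55e-06 by limma in *bcat-1(hh58)* and -0.57, SE 0.056, adjusted p = 9.21e-07 by limma in the double mutant. Both calls held in the 9 alternatives and in each of the 20 fits that left out 1 sample.

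In *ivd-1(tm6784)* *sams-3* stood at 81.8, 75.5, 70.3 and 79.0 FPKM, overlapping wild-type, with a log2 fold change of -0.11, SE 0.056 and adjusted p = 0.166 by limma. In *hecd-1(tm2371)* it was 99.7, 94.6, 84.1 and 93.9 FPKM, higher than the 4 wild-type values in 3 of 4 samples. That rise had a log2 fold change of 0.17, SE 0.056, adjusted p = 0.0425 by limma, and the call was lost with median-of-ratios scaling, quantile normalization or no filter (adjusted p 0.00966 to 0.393 over the alternatives) and in 10 of 20 fits without 1 sample. *sams-3* thus ran over a range from a mean of 55.5 ± 3.08 FPKM in the double mutant to 93.1 ± 6.48 FPKM in *hecd-1(tm2371)* (SD, n = 4 each).

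*sams-4*, the head-to-head paralog, did not follow *sams-3*. It lay within a few FPKM in all strains, at 53.6, 53.5, 51.3 and 51.4 FPKM in *ivd-1(tm6784)* worms, 52.1, 49.8, 49.1 and 50.8 in *bcat-1(hh58)*, 46.8, 46.1, 46.8 and 46.0 in the double mutant, 53.1, 51.3, 48.3 and 50.5 in *hecd-1(tm2371)* and 48.8, 46.6, 45.3 and 48.7 in wild-type. The samples of *ivd-1(tm6784)* and *bcat-1(hh58)* lay above all wild-type samples, and those of the double mutant and *hecd-1(tm2371)* overlapped them. In *ivd-1(tm6784)* it rose by a log2 fold change of 0.15, SE 0.036, adjusted p = 0.00682 by limma, which was lost under median-of-ratios scaling and quantile normalization (adjusted p 0.00461 to 0.438 over the alternatives). In *bcat-1(hh58)* the value was 0.091, SE 0.036 with adjusted p = 0.0474 by limma. Under median-of-ratios scaling it turned to -0.098 and passed as lower (adjusted p = 0.0466 by limma), so no direction is given for it.

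*sams-1*, the most abundant of the 4 synthetases and the one tied to phosphatidylcholine, passed the test in no strain against wild-type. Its FPKM were 284, 297, 316 and 299 in *ivd-1(tm6784)* worms, 288, 256, 267 and 278 in *bcat-1(hh58)*, 290.1, 271, 165 and 229 in the double mutant, 226, 218, 197 and 175 in *hecd-1(tm2371)* and 231, 263, 283 and 249 in wild-type. All 4 *ivd-1(tm6784)* samples were above and all 4 *hecd-1(tm2371)* samples below the wild-type range, while the double mutant spread widest and held, in replicate 3, the lowest of the 20 values. The log2 fold change was 0.22, SE 0.13, adjusted p = 0.208 by limma in *ivd-1(tm6784)* and -0.33, SE 0.13, adjusted p = 0.0716 by limma in *hecd-1(tm2371)*. With only the 2 strains compared in the fit, both passed, with adjusted p of 0.0285 in *ivd-1(tm6784)* and 0.0312 in *hecd-1(tm2371)*, inside ranges of 0.0285 to 0.476 and 0.0312 to 0.244 over the alternatives.

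*sams-5* had the lowest level and varied most among samples of one strain. It was measured at 11.5, 11.5, 5.61 and 6.46 FPKM in the double mutant and at 17.5, 24.4, 18.6 and 14.4 FPKM in wild-type, with no overlap. The fall had a log2 fold change of -1.10, SE 0.35, adjusted p = 0.0209 by limma, and the call was lost without wild-type replicate 2, double mutant replicate 3 or double mutant replicate 4 (log2 fold change -1.24 to -0.92 over the 20 fits that left out 1 sample). In *ivd-1(tm6784)* the values were 23.0, 35.8, 20.0 and 24.1, in *bcat-1(hh58)* 20.7, 7.38, 22.6 and 14.9 and in *hecd-1(tm2371)* 32.3, 29.3, 12.5 and 14.5 FPKM. These 3 strains overlapped wild-type, and within *hecd-1(tm2371)* replicates 1 and 2 lay far above replicates 3 and 4.

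The level of *sams-5* went with that of sperm genes from sample to sample. The summed FPKM of 8 sperm markers, such as *gsp-3*, *gsp-4* and *ssp-16*, were 57.6, 63.7, 21.6 and 34.99 in the double mutant, 137, 230.2, 135 and 169 in *ivd-1(tm6784)* worms, 124, 51.3, 166 and 96.4 in *bcat-1(hh58)* worms, 142, 121, 48.0 and 57.6 in *hecd-1(tm2371)* and 98.2, 150.0, 112 and 85.9 in wild-type. In the double mutant 4 of the 8 markers were lower than in wild-type, and 8 of 8 were lower than in *ivd-1(tm6784)*. The sample with the highest *sams-5*, replicate 2 of *ivd-1(tm6784)*, was also the highest in sperm markers, and the lowest, replicate 3 of the double mutant, was the lowest in both. None of the 8 markers was at 0 in all samples, and the part of sperm content in the *sams-5* result was not tested.

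**Figure D3:**
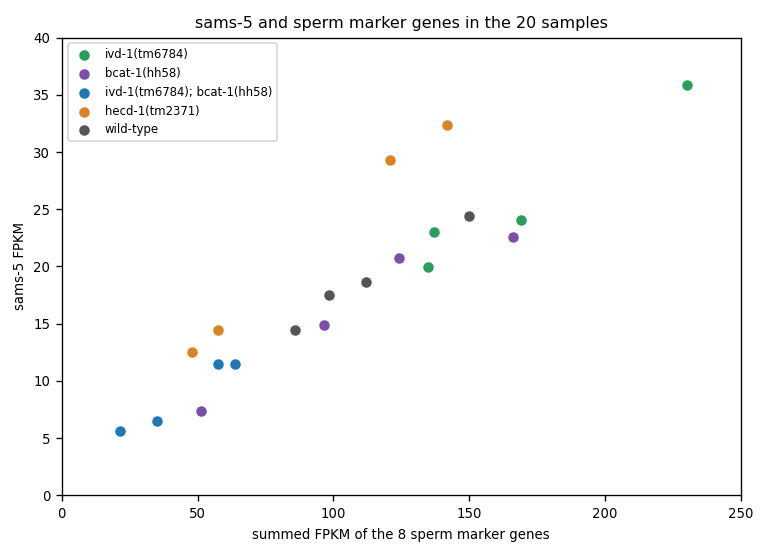
*sams-5* FPKM (y axis) against the summed FPKM of 8 sperm marker genes (x axis) in the 20 samples, coloured by strain. The double mutant samples lie at the lower left, between 5.61 and 11.5 FPKM of *sams-5*, and the highest point is an *ivd-1(tm6784)* sample with 35.8 FPKM.

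As a family the 4 synthetases summed to 453.9 ± 8.57 FPKM in *ivd-1(tm6784)* worms, 400.1 ± 19.7 in *bcat-1(hh58)*, 349.5 ± 60.1 in the double mutant, 370.1 ± 37.7 in *hecd-1(tm2371)* and 405 ± 21.1 FPKM in wild-type (SD, n = 4 each). The sum in all 4 *ivd-1(tm6784)* samples exceeded all wild-type samples, a difference of 48.9 FPKM with an exact two-sided permutation p of 0.0286, the smallest that 4 against 4 samples allow, and 0.114 after adjustment over the 4 strains. Under median-of-ratios scaling that difference was 17.1 FPKM, and the difference of *bcat-1(hh58)* from wild-type, -5.03 FPKM as deposited, was -58.1 FPKM (exact permutation p = 0.0286, and 0.0762 after adjustment). *sams-1* held 65.9 ± 2.27% of the sum in *ivd-1(tm6784)* worms, 68.1 ± 0.333% in *bcat-1(hh58)*, 67.8 ± 4.69% in the double mutant, 55.1 ± 2.099% in *hecd-1(tm2371)* and 63.2 ± 2.20% in wild-type. The share was higher than in every wild-type sample in *bcat-1(hh58)* and lower than in every wild-type sample in *hecd-1(tm2371)*, each with an exact permutation p of 0.0286 and 0.0571 after adjustment.

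Of the 3 remethylation genes, *metr-1* and *mthf-1* rose in *ivd-1(tm6784)* as well as in *bcat-1(hh58)*, and *mtrr-1* did not pass the test. For *metr-1*, the methionine synthase, FPKM were 117, 110.4, 81.4 and 113.5 in *ivd-1(tm6784)* worms, 115.4, 94.5, 96.2 and 101 in *bcat-1(hh58)*, 99.5, 81.7, 78.8 and 88.8 in the double mutant, 91.1, 99.6, 80.7 and 91.0 in *hecd-1(tm2371)* and 83.5, 76.8, 73.2 and 70.7 in wild-type. All 4 *bcat-1(hh58)* samples and 3 of 4 *ivd-1(tm6784)* samples lay above the wild-type range. The log2 fold change in *ivd-1(tm6784)* was 0.46, SE 0.11, adjusted p = 0.00458 by limma, and held in the 9 alternatives and the 20 fits that left out 1 sample. In *bcat-1(hh58)* it was 0.42, SE 0.11, adjusted p = 0.00378 by limma, a call lost under median-of-ratios scaling (adjusted p 4.34e-04 to 0.0672 over the alternatives). The double mutant had a log2 fold change of 0.19, SE 0.11 and *hecd-1(tm2371)* one of 0.25, SE 0.11, neither past the threshold (adjusted p = 0.162 and 0.102 by limma). The value in *hecd-1(tm2371)* passed with only the strains compared and with the replicate as a block (adjusted p 0.0328 to 0.356 over the alternatives).

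*mthf-1*, the folate reductase that feeds METR-1, was measured at 184, 164, 155 and 172 FPKM in *bcat-1(hh58)*, 162, 167, 140.4 and 164 in *ivd-1(tm6784)* worms, 175, 155, 130 and 145 in the double mutant, 153, 146, 125 and 134 in *hecd-1(tm2371)* and 133, 137, 135 and 131 in wild-type. The samples of *bcat-1(hh58)* and *ivd-1(tm6784)* were all above those of wild-type. The rise was 0.33, SE 0.082, adjusted p = 0.00308 by limma in *bcat-1(hh58)* and 0.24, SE 0.082, adjusted p = 0.0442 by limma in *ivd-1(tm6784)*. Median-of-ratios scaling ended both calls, and quantile normalization and the fit without a filter ended that in *ivd-1(tm6784)* (adjusted p 2.86e-04 to 0.141 and 0.00865 to 0.201 over the alternatives). The call in *ivd-1(tm6784)* was also lost in 12 of the 20 fits that left out 1 sample.

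*mtrr-1*, which restores METR-1 after oxidation of its cofactor, passed the test in no strain against wild-type. Its means were 78.5 ± 9.24 FPKM in *ivd-1(tm6784)* worms, 74.2 ± 6.76 in *bcat-1(hh58)*, 67.9 ± 6.94 in the double mutant, 81.1 ± 3.80 in *hecd-1(tm2371)* and 71.6 ± 1.51 in wild-type (SD, n = 4 each). In *hecd-1(tm2371)* the values of 83.7, 82.3, 75.5 and 83.0 FPKM all exceeded the wild-type values of 73.6, 71.5, 69.9 and 71.3 FPKM, with a log2 fold change of 0.18, SE 0.083 and adjusted p = 0.136 by limma. It passed with only those strains in the fit and with the replicate as a block (adjusted p 0.0146 to 0.579 over the alternatives). Replicate 1 held the highest and replicate 3 the lowest *mtrr-1* value within each of the 5 strains. The 95% interval of its log2 fold change in *bcat-1(hh58)* was -0.13 to 0.22, so that a rise of the size of *metr-1* lies outside it. Whether *metr-1* and *mtrr-1* changed by different amounts was not tested.

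*ahcy-1*, the hydrolase that clears S-adenosylhomocysteine, fell where *bcat-1* was mutated. Its FPKM were 1683, 1336, 1364 and 1521 in *bcat-1(hh58)*, 1502, 1326, 1055 and 1245 in the double mutant and 1871, 1927, 1744 and 1742 in wild-type. The 8 samples with *bcat-1(hh58)* lay below all wild-type samples. In the double mutant the log2 fold change was -0.52, SE 0.11, adjusted p = 0.00112 by limma, and the call held in the 9 alternatives and the 20 fits that left out 1 sample. In *bcat-1(hh58)* it was -0.31, SE 0.11, adjusted p = 0.0252 by limma, lost under quantile normalization (adjusted p 3.85e-04 to 0.0916 over the alternatives) and without wild-type replicate 1 or 2 or *bcat-1(hh58)* replicate 2 or 3 (log2 fold change -0.37 to -0.26 over the left-out samples). In *ivd-1(tm6784)* *ahcy-1* stood at 1903, 2029, 1682 and 1881 FPKM and did not pass (log2 fold change 0.039, SE 0.11, adjusted p = 0.809 by limma). In *hecd-1(tm2371)* it stood at 1850.4, 1693, 1346 and 1556 FPKM and did not pass either (log2 fold change -0.18, SE 0.11, adjusted p = 0.233 by limma).

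The log2 ratio of *sams-1* to *ahcy-1* within each sample, a measure that does not depend on sample scaling, averaged -2.43 ± 0.086 in *bcat-1(hh58)*, -2.44 ± 0.16 in the double mutant, -2.65 ± 0.16 in *ivd-1(tm6784)* worms, -2.98 ± 0.16 in *hecd-1(tm2371)* and -2.83 ± 0.16 in wild-type (SD, n = 4 each). The difference from wild-type was 0.40 in *bcat-1(hh58)*, with no overlap with wild-type and an exact permutation p of 0.0286, and 0.114 after adjustment over the 4 strains.

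The methyltransferases of phosphatidylcholine synthesis moved apart from each other. *pmt-2* was lower in 3 of the 4 mutant strains, and *pmt-1* was higher in *bcat-1(hh58)* and in the double mutant. *pmt-2* was measured at 573, 579, 519 and 602 FPKM in *bcat-1(hh58)*, 657, 596, 430.4 and 521 in the double mutant, 641, 593, 484 and 524 in *hecd-1(tm2371)* and 712, 782, 746 and 708 in wild-type. All 12 of these mutant samples were below the wild-type range. The log2 fold changes were -0.38, SE 0.10, adjusted p = 0.00673 in *bcat-1(hh58)*, -0.44, SE 0.10, adjusted p = 0.00332 in the double mutant and -0.40, SE 0.10, adjusted p = 0.0119 in *hecd-1(tm2371)*, all by limma. The 3 calls held in the 9 alternatives and the 20 fits that left out 1 sample. In *ivd-1(tm6784)* *pmt-2* was 701, 689.9, 640.2 and 720.3 FPKM and overlapped wild-type, with a log2 fold change of -0.10, SE 0.10, adjusted p = 0.499 by limma.

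*pmt-1* reached its highest level in *bcat-1(hh58)*, at 316, 276, 313 and 323 FPKM, against 228, 236, 216 and 204 FPKM in wild-type. The groups did not overlap, the log2 fold change was 0.47, SE 0.082, adjusted p = 1.37e-04 by limma, and the call held in the 9 alternatives and the 20 fits that left out 1 sample. In the double mutant it was 282, 277, 219 and 251 FPKM, with replicate 3 inside the wild-type range. The log2 fold change there was 0.21, SE 0.082, adjusted p = 0.0467 by limma, and the call was lost with median-of-ratios scaling, no filter or only the strains compared (adjusted p 0.00503 to 0.195 over the 9 alternatives) and in 12 of 20 fits without 1 sample. In *ivd-1(tm6784)* the values were 246, 274, 241 and 252 FPKM, all above wild-type, with a log2 fold change of 0.20, SE 0.082 that did not pass (adjusted p = 0.0915 by limma). In *hecd-1(tm2371)* they were 258, 248, 216 and 212 FPKM and overlapped wild-type (log2 fold change 0.079, SE 0.082, adjusted p = 0.545 by limma).

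Within each sample the balance of the pair shifted towards *pmt-1* in all 4 mutant strains. The log2 ratio of *pmt-1* to *pmt-2* FPKM was -0.858, -1.07, -0.728 and -0.899 in *bcat-1(hh58)*, -1.22, -1.10, -0.974 and -1.06 in the double mutant, -1.31, -1.26, -1.16 and -1.30 in *hecd-1(tm2371)*, -1.51, -1.33, -1.41 and -1.52 in *ivd-1(tm6784)* and -1.64, -1.73, -1.79 and -1.80 in wild-type. Each of the 16 mutant samples had a higher ratio than each of the 4 wild-type samples. The 4 comparisons share these 4 wild-type samples, so they are not independent. The share of other gene pairs that shift likewise was not computed. The mean difference from wild-type was 0.85 in *bcat-1(hh58)*, 0.65 in the double mutant, 0.48 in *hecd-1(tm2371)* and 0.30 in *ivd-1(tm6784)*, each with an exact two-sided permutation p of 0.0286, the smallest possible with 4 against 4 samples, and 0.0286 after adjustment over the 4 strains. This ratio is not changed by sample scaling. The summed FPKM of 9 intestine markers lay between 5544 and 5865 in *hecd-1(tm2371)*, between 7265 and 7504 in *bcat-1(hh58)* worms and between 6683 and 7236 in wild-type, so that they were lower with *pmt-2* in *hecd-1(tm2371)* and not in *bcat-1(hh58)*. Their part in the *hecd-1(tm2371)* result was not tested.

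**Figure D4:**
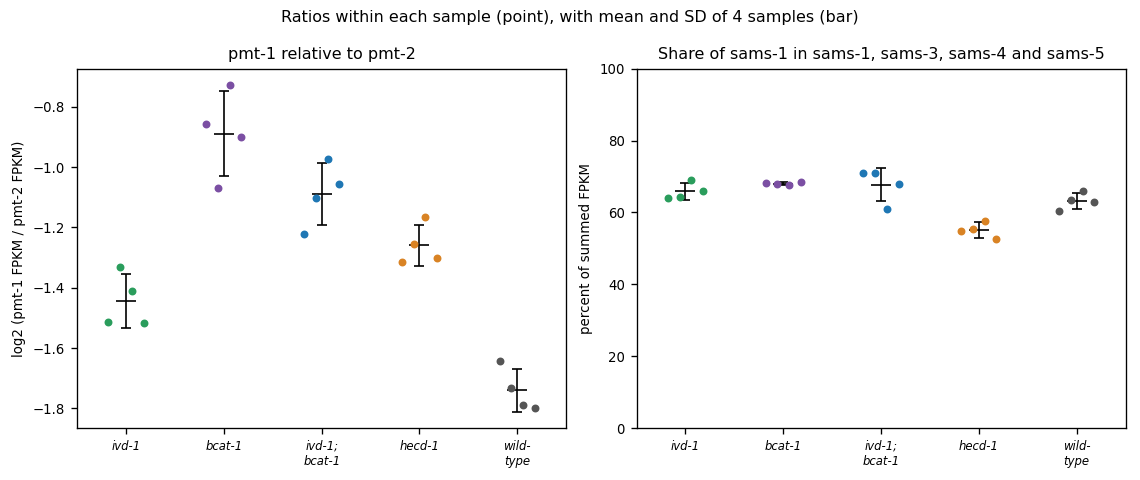
Left, log2 ratio of *pmt-1* to *pmt-2* FPKM in each of the 20 samples. Right, share of *sams-1* in the summed FPKM of the 4 synthetases in percent, with bars for the mean and SD of 4 samples per strain in both panels. The 16 mutant samples lie above the 4 wild-type samples in the left panel, and *hecd-1(tm2371)* lies lowest in the right panel with a mean of 55.1%.

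The double mutant asks whether the effect of *bcat-1(hh58)* is the same when *ivd-1* is also mutated. Against *ivd-1(tm6784)*, 7 of the 10 genes were lower in the double mutant, where 44.6% of all tested genes differed, 23.2% lower and 21.4% higher. *sams-5* had a log2 fold change of -1.54 (adjusted p = 0.00286), *ahcy-1* of -0.56 (adjusted p = 9.58e-04), *sams-3* of -0.46 (adjusted p = 1.97e-05) and *sams-4* of -0.17 (adjusted p = 0.00150), all by limma, and these 4 held in the 9 alternatives and the 20 fits that left out 1 sample. *pmt-2* at -0.34, *sams-1* at -0.35 and *metr-1* at -0.27 also passed (adjusted p = 0.0153, 0.0312 and 0.0483 by limma) but were less stable: quantile normalization ended all 3 calls, and median-of-ratios scaling that of *metr-1*. The *metr-1* call was lost in 5 of the 9 alternatives and 13 of the 20 fits that left out 1 sample. That of *sams-1* was lost in 2 and 5, and that of *pmt-2* in 1 and 1. *mtrr-1*, *mthf-1* and *pmt-1* did not pass. In 4 of the 10 genes the samples of the double mutant and *ivd-1(tm6784)* did not overlap, beside 42.6% of all tested genes.

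Against *bcat-1(hh58)*, 2 of the 10 genes were lower in the double mutant, where 23.4% of all tested genes differed, 19.5% lower and 3.93% higher. These were *pmt-1*, with a log2 fold change of -0.26, SE 0.082, adjusted p = 0.0349 by limma, and *sams-4*, with -0.12, SE 0.036, adjusted p = 0.0318 by limma. Neither call held under median-of-ratios scaling or in a fit of only those strains, and without *bcat-1(hh58)* replicate 1, 3 or 4, or double mutant replicate 3 or 4, neither passed, while without double mutant replicate 1 the count was 5. Ranges of the samples were apart for 1 of the 10 genes, beside 12.8% of all tested genes.

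The effect of *bcat-1(hh58)* differed between the 2 backgrounds for 6 of the 10 genes by the interaction term, all 6 lower in the *ivd-1(tm6784)* background, where 47.4% of all tested genes had an interaction, 35.3% lower and 12.2% higher. For *metr-1* the log2 fold change of *bcat-1(hh58)* against wild-type was 0.42, while that of the double mutant against *ivd-1(tm6784)* was -0.27, an interaction of -0.68, SE 0.15, adjusted p = 0.00201 by limma. *pmt-1* likewise differed by 0.47 in *bcat-1(hh58)* against wild-type and by 0.018 in the double mutant against *ivd-1(tm6784)*, an interaction of -0.46, SE 0.12, adjusted p = 0.00531 by limma. These 2 held in the 9 alternatives and the 20 fits that left out 1 sample. The interaction was -0.40 for *mthf-1*, -0.26 for *sams-4*, -1.26 for *sams-5* and -0.44 for *sams-1* (adjusted p = 0.0102, 7.61e-04, 0.0467 and 0.0497 by limma), and all 4 were lost under median-of-ratios scaling. The call of *sams-1* was also lost in 15 of the 20 fits that left out 1 sample, and that of *sams-5* in 11. *sams-3*, *pmt-2* and *ahcy-1*, the genes that fell with *bcat-1(hh58)*, had interactions of -0.024, 0.04 and -0.25 that did not pass, with 95% intervals of -0.19 to 0.14, -0.27 to 0.35 and -0.56 to 0.068. Tissue markers moved with this term: 8 of 8 neuron, 8 of 8 sperm, 6 of 6 body wall muscle, 6 of 6 larval molting and 6 of 8 hypodermis and cuticle markers had a negative interaction that passed, and 21 of 24 germline markers a positive one. Of 9 intestine markers 6 had a negative and 2 a positive interaction that passed, and of 5 embryo markers 2 had a negative one. With a germline score as a covariate, 3 members and 4362 genes passed, and the calls of *mthf-1*, *sams-5* and *sams-1* were lost. Beyond that fit, the part of these markers in the members' interactions was not tested.

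**Figure D5:**
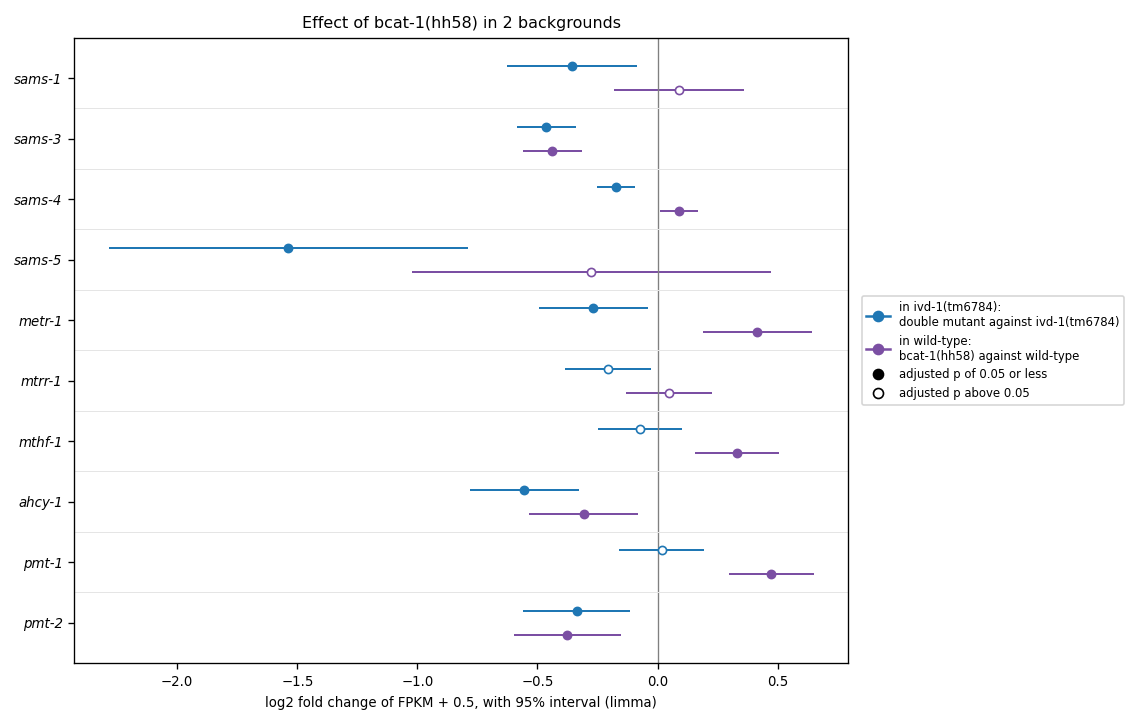
Log2 fold change and 95% interval (limma) of the 10 genes for *bcat-1(hh58)* in the *ivd-1(tm6784)* background (double mutant against *ivd-1(tm6784)*) and in wild-type (*bcat-1(hh58)* against wild-type). For *metr-1* the points lie on opposite sides of 0, at -0.27 and 0.42, and for *sams-3* they lie close together, at -0.46 and -0.44.

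The genes around the cycle were read from 6 lists, chosen like the members with earlier results of these data known. The alternatives and the fits that left out 1 sample were read for the 10 members and not for single list genes. How scaling would change the smaller values in these lists was not tested. The folate list of 10 genes held the largest change of the 6 lists against wild-type. *folt-2*, a folate carrier homologue, was measured at 65.8, 62.9, 42.0 and 59.2 FPKM in *bcat-1(hh58)*, 52.5, 51.4, 39.3 and 50.3 in the double mutant, 272, 265, 274 and 313 in *hecd-1(tm2371)*, 418, 418, 345 and 417 in *ivd-1(tm6784)* and 399, 357, 312 and 421 in wild-type. Its level in the strains with *bcat-1(hh58)* was far below all other samples, with log2 fold changes of -2.70, SE 0.13, adjusted p = 2.92e-10 and -2.93, SE 0.13, adjusted p = 7.15e-11 by limma. *dao-3*, a folate dehydrogenase and cyclohydrolase homologue, rose in the same strains, by 0.96 on the log2 scale in *bcat-1(hh58)* and 0.89 in the double mutant, to means of 46.8 ± 0.921 and 44.5 ± 2.13 FPKM, against 23.8 ± 0.755 FPKM in wild-type (SD, n = 4 each). Of the 10 genes, 1 was higher and 2 lower in *bcat-1(hh58)*, 2 higher and 5 lower in the double mutant, and 1 higher and 5 lower in *hecd-1(tm2371)*, while in *ivd-1(tm6784)* the log2 fold changes lay between -0.30 and 0.11. The glycine cleavage genes *gcst-1*, *gldc-1* and *gcsh-1*, which load carbon onto folate, fell in the double mutant (log2 fold changes of -0.32, -0.39 and -0.75) and in *hecd-1(tm2371)* (-0.31, -0.26 and -0.93).

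Of 13 genes of transsulfuration and vitamin B12 handling, 5 were higher and 3 lower in *bcat-1(hh58)*, 4 higher and 2 lower in the double mutant, 3 higher and 1 lower in *ivd-1(tm6784)*, and 1 higher and 3 lower in *hecd-1(tm2371)*. *cth-1*, a cystathionine lyase of the route that passes homocysteine sulfur to cysteine, had 78.2, 47.4, 84.4 and 76.9 FPKM in *bcat-1(hh58)*, 42.4, 38.4, 37.2 and 48.0 in the double mutant, 21.6, 25.2, 22.1 and 26.1 in *ivd-1(tm6784)* worms, 20.8, 15.6, 14.7 and 11.7 in *hecd-1(tm2371)* and 37.9, 30.5, 37.2 and 34.2 in wild-type. It rose in *bcat-1(hh58)* (1.00, SE 0.17, adjusted p = 1.04e-04 by limma) and fell in *ivd-1(tm6784)* (-0.55, SE 0.17, adjusted p = 0.0248 by limma) and in *hecd-1(tm2371)* (-1.16, SE 0.17, adjusted p = 1.58e-04 by limma). In the double mutant *cth-1* did not pass (0.24, SE 0.17, adjusted p = 0.274 by limma). *cbs-1*, the cystathionine synthase before it, rose by 0.46 in *bcat-1(hh58)* and 0.32 in the double mutant on the log2 scale and fell in *hecd-1(tm2371)* (-0.38). *nhr-114*, a nuclear receptor known to activate methionine cycle genes when the cycle runs low, was lower with *bcat-1(hh58)*, at 70.0, 70.7, 51.1 and 76.4 FPKM in *bcat-1(hh58)* and 83.5, 63.5, 32.1 and 61.2 in the double mutant, against 142, 158, 111 and 148 in wild-type (log2 fold change -1.06, SE 0.22, adjusted p = 8.25e-04 and -1.28, SE 0.22, adjusted p = 2.87e-04 by limma). *acdh-1*, the propionate shunt gene widely used as a reporter of low vitamin B12, fell in the same strains to means of 486 ± 109.5 and 441 ± 148 FPKM, against 1298 ± 70.3 FPKM in wild-type. *cblc-1*, which processes vitamin B12, was the one gene of this list that was higher in all 4 strains, by 0.17 to 0.26 on the log2 scale. The medians over all tested genes lay between 0.080 and 0.17 in these strains.

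Among 12 tested genes of the choline and ethanolamine routes, which make phosphatidylcholine from choline or supply phosphoethanolamine, the highest log2 fold change in any strain was that of *ckb-2*. Of the 12, 2 were higher in *ivd-1(tm6784)* worms, 1 was higher and 1 lower in *bcat-1(hh58)* and likewise in the double mutant, and 2 were higher and 3 lower in *hecd-1(tm2371)*. The choline kinase gene *ckb-2* rose by 0.43 on the log2 scale in *ivd-1(tm6784)* worms, by 0.43 in *bcat-1(hh58)* worms and by 0.40 in *hecd-1(tm2371)*. A further choline kinase gene, *ckc-1*, was measured at 20.5, 19.4, 17.1 and 18.6 FPKM in *hecd-1(tm2371)*, against 27.3, 30.6, 30.5 and 27.8 in wild-type, and fell there (log2 fold change -0.61, adjusted p = 6.93e-06 by limma). *pcyt-1*, the cytidylyl transferase that sets the rate of the choline route, also fell in *hecd-1(tm2371)* (log2 fold change -0.21, adjusted p = 0.0390 by limma). *ckb-3* was under the filter on low values in every strain and was not tested.

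Of 7 lipogenic genes that respond to phosphatidylcholine, 2 were higher and 1 lower in *bcat-1(hh58)*, 1 higher and 3 lower in the double mutant, 1 lower in *ivd-1(tm6784)* and 2 lower in *hecd-1(tm2371)*. In *ivd-1(tm6784)* the log2 fold changes of the 7 genes lay between -1.67 and 0.18. *sbp-1*, the lipogenic factor, rose in *bcat-1(hh58)* (log2 fold change 0.33) and fell in *hecd-1(tm2371)* (-0.35), while its target *fat-7*, a fatty acid desaturase, was 32.8, 34.6, 23.0 and 23.5 FPKM in *bcat-1(hh58)*, 48.0, 52.2, 14.9 and 18.2 in the double mutant and 219.7, 278, 41.4 and 57.1 in wild-type. All 4 *bcat-1(hh58)* samples lay below the wild-type samples, but the double mutant overlapped wild-type, and in every strain replicates 1 and 2 were above replicates 3 and 4 (log2 fold change -1.95, SE 0.65, adjusted p = 0.0206 and -1.91, SE 0.65, adjusted p = 0.0268 by limma). The desaturase gene *fat-6* was lowest in *hecd-1(tm2371)*, at 219, 186, 161 and 167 FPKM, against 421, 416, 316 and 331 in wild-type.

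The remaining lists held genes of polyamine and adenosine routes and S-adenosylmethionine-dependent methyltransferases. Of 4 polyamine and adenosine genes, 1 was higher in *bcat-1(hh58)*, 1 higher and 2 lower in the double mutant, and 2 lower in *hecd-1(tm2371)*. In *ivd-1(tm6784)* none passed. The gene that was higher was *odc-1*, ornithine decarboxylase of polyamine synthesis. *odc-1* rose in *bcat-1(hh58)* (85.4, 56.7, 83.4 and 70.3 FPKM) and the double mutant (56.3, 51.4, 43.2 and 47.0 FPKM), and fell in *hecd-1(tm2371)* (20.7, 20.9, 23.1 and 19.6 FPKM), against 25.2, 33.6, 32.02 and 30.5 FPKM in wild-type, with log2 fold changes of 1.26, 0.70 and -0.51 (adjusted p = 3.90e-07, 2.74e-04 and 0.00727 by limma). Of 9 methyltransferase genes 4 were lower in *bcat-1(hh58)*, 3 in the double mutant and 1 in *ivd-1(tm6784)*, while 3 were higher and 1 lower in *hecd-1(tm2371)*. Of all tested genes 44.2% differed in *bcat-1(hh58)*, 38.3% in the double mutant and 22.8% in *ivd-1(tm6784)*, with 10.3%, 11.9% and 2.88% lower. In *hecd-1(tm2371)* 14.0% of all tested genes were higher and 7.15% lower. *prmt-1*, an arginine methyltransferase, was lower in all 4 strains (log2 fold change -0.17 in *ivd-1(tm6784)* worms, -0.40 in *bcat-1(hh58)*, -0.36 in the double mutant and -0.17 in *hecd-1(tm2371)*), and *fib-1*, fibrillarin, was lower in *bcat-1(hh58)* (-0.37) and the double mutant (-0.43). The 3 genes higher in *hecd-1(tm2371)* were the histone methyltransferase genes *set-2*, *set-16* and *set-17*, and the summed germline markers, between 9566 and 11030 FPKM in *hecd-1(tm2371)* and between 8263 and 8821 FPKM in wild-type, were also higher there. The part of germline content in these values was not tested.

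For each member that passed in at least 1 strain, the tested genes with the closest pattern over the 16 mutant samples were sought by the mean absolute difference of log2(FPKM + 0.5) from the wild-type mean. *sams-4* was closest to *frm-1* and *arf-1*, at 0.044 and 0.047, and *pmt-1* to *cab-1* at 0.054, which also stood second for *mthf-1* at 0.081. For *sams-5* the closest genes were *ptp-5.3* at 0.11, *nsph-4.1* at 0.13 and F53B6.7 at 0.14. *ahcy-1* was nearest to D2092.4 at 0.085, *aqp-7* at 0.096 and the aconitase gene *aco-1* at 0.10, *pmt-2* to C52B11.5 at 0.076 and *sec-61.A* and *col-179* at 0.091, *sams-3* to *fbf-1* at 0.099, and *metr-1* to C07B5.4 at 0.10 and the nuclear receptor gene *nhr-80* at 0.11. Since samples of a strain share all that differs in that strain, these values describe likeness only.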

How the data were processed

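Poly-A-selected, stranded, paired-end libraries of 20 whole-worm samples were sequenced. By the study's methods the authors aligned the reads with Tophat and deposited gene-level FPKM from Cufflinks on the Ensembl release 93 annotation; the genome build is not given in the sources used here. FPKM carry no read counts, so no count test was run and depth limits cannot be computed. All 20 columns were mapped to labelled samples.

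The 10 members and all lists were chosen with earlier results of these data known. The 15957 genes that reached an FPKM of 0.5 in 4 or more samples were fitted as log2(FPKM + 0.5) with limma 3.58.1 (R 4.3.3), with strain as the only term, 15 residual degrees of freedom, empirical Bayes with trend, and Benjamini-Hochberg adjustment over all genes. Fold changes on this scale understate low genes. Ratios and shares within samples were tested by exact two-sided permutation over the 70 splits. Text names all members, list genes that passed or are given by value, and some or all of the 3 genes most like each member that passed. The script was tested on simulated data. Alternatives were pseudocounts of 0.1 and 1, no filter, a mean FPKM of at least 1, median-of-ratios scaling, quantile normalization, only the strains compared, a replicate block, a germline score as covariate (these are the 9 alternatives counted in the text), an adjusted p of 0.01, and leaving out each sample. Replicates came from independent experiments by the study's methods.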

Additional observations from a re-analysis of the deposited data

Results flagged for a closer look

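In *mtrr-1* 1 sample stood apart from the other 3 of its strain in *ivd-1(tm6784)*, where replicate 3 was at 64.73 FPKM with a gap to the nearest sample of 0.861 of the group's range, and in *hecd-1(tm2371)*, where replicate 3 was at 75.47 FPKM with a gap of 0.836. Both gaps exceed Dixon's critical value for 4 samples, and of the 70 groups tested chance alone flags about 1 in 20.

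The effect of *bcat-1(hh58)* in the *ivd-1(tm6784)* background differed from that in wild-type, by the limma interaction term, for *metr-1* (-0.6823, adjusted p = 0.00201), *sams-4* (-0.2648, adjusted p = 7.61e-04), *pmt-1* (-0.4565, adjusted p = 0.00531), *mthf-1* (-0.4043, adjusted p = 0.0102), *sams-5* (-1.261, adjusted p = 0.0467) and *sams-1* (-0.4445, adjusted p = 0.0497). Among all tested genes 47.4% passed the same test, with a median of -0.19 on the log2 scale. The calls of *metr-1* and *pmt-1* held in the 9 alternatives and the 20 fits that left out 1 sample. Those of the other genes named were lost under median-of-ratios scaling. The *sams-1* call was lost in 7 of the 9 alternatives and 15 of the 20 fits that left out 1 sample, and the *sams-5* call in 4 and 11.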

How the results depend on the processing

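Without 1 sample at a time and over 9 alternatives, *sams-3*, *ahcy-1* and *pmt-2* stayed lower in the double mutant, *sams-3*, *pmt-2* lower and *pmt-1* higher in *bcat-1(hh58)*, *pmt-2* lower in *hecd-1(tm2371)* and *metr-1* higher in *ivd-1(tm6784)*, all past the threshold against wild-type. Over the 10 genes and 7 comparisons, 551 log2 fold changes kept direction and side of the threshold under the alternatives, 46 lost the call, 20 gained it and 13 changed direction; the cause was not tested.

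Under median-of-ratios scaling the direction turned for *ahcy-1* in *ivd-1(tm6784)* (-0.068), *sams-1* (-0.10), *sams-4* (-0.098) and *mtrr-1* (-0.14) in *bcat-1(hh58)*, *pmt-2* in the double mutant against *bcat-1(hh58)* (0.040) and the interaction of *sams-3* (0.18). With the germline score as a covariate it turned for *ahcy-1* in *ivd-1(tm6784)* (-0.023), *sams-1* in *bcat-1(hh58)* (-0.053), *pmt-2* in the double mutant against *bcat-1(hh58)* (0.057) and the interaction of *sams-3* (0.028). Under quantile normalization it turned for *mtrr-1* in *bcat-1(hh58)* (-0.0062), *pmt-2* in the double mutant against *bcat-1(hh58)* (0.013) and *sams-4* in *hecd-1(tm2371)* (-0.00088). None of these but *sams-4* in *bcat-1(hh58)* had passed.

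Members that passed in *hecd-1(tm2371)* numbered 1 with no filter, 1 with median-of-ratios scaling, 1 with quantile normalization, 5 with only the strains compared and 0 at an adjusted p of 0.01. For the double mutant against *bcat-1(hh58)* they numbered 0 with median-of-ratios scaling, 1 with quantile normalization, 0 with only the strains compared, 0 with the germline score and 0 at 0.01. The interaction gave 2 with median-of-ratios scaling, 3 with the germline score and 3 at 0.01. In *ivd-1(tm6784)* 1 passed with quantile normalization and 5 with only the strains compared, and at 0.01 there were 3 in the double mutant and 4 in the double mutant against *ivd-1(tm6784)*. Over all genes, *hecd-1(tm2371)* gave 3369 genes, and 2201 with median-of-ratios scaling, 2192 with quantile normalization and 1419 at 0.01; the double mutant against *bcat-1(hh58)* gave 3738, and 7 with only the strains compared, 555 with the germline score and 304 at 0.01; the interaction gave 7569, and 4362 with the germline score and 4096 at 0.01. At 0.01 there were 1909 genes in *ivd-1(tm6784)* (3633 at 0.05), 3869 in the double mutant (6113) and 4259 in the double mutant against *ivd-1(tm6784)* (7112). With median-of-ratios scaling the summed synthetases differed from wild-type by 17.1 FPKM in *ivd-1(tm6784)* and -58.1 FPKM in *bcat-1(hh58)*.

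Leaving out 1 sample, members that passed ranged from 1 to 3 in *hecd-1(tm2371)*, 3 to 5 in the double mutant (3 without its replicate 4), 4 to 8 in the double mutant against *ivd-1(tm6784)* (4 without double mutant replicate 3) and 0 to 5 in the double mutant against *bcat-1(hh58)*. Genes ranged from 2269 to 4240 in *ivd-1(tm6784)* (2269 without its replicate 2), 1964 to 4063 in *hecd-1(tm2371)* (2042 and 2218 without wild-type replicates 2 and 3, 2189 and 1964 without its own replicates 3 and 4), and 448 to 7707 in the double mutant against *bcat-1(hh58)* (855, 7707, 448 and 1890 without *bcat-1(hh58)* replicates 1 to 4, and 608 and 1016 without double mutant replicates 3 and 4). Direction turned within these ranges for *mtrr-1* (-0.013 to 0.080) and *sams-5* (-0.46 to 0.053) in *bcat-1(hh58)*, *sams-1* in the double mutant (-0.23 to 0.036), *sams-5* in *hecd-1(tm2371)* (-0.072 to 0.37), *pmt-1* in the double mutant against *ivd-1(tm6784)* (-0.028 to 0.092), *pmt-2* in the double mutant against *bcat-1(hh58)* (-0.15 to 0.053), and the interactions of *pmt-2* (-0.050 to 0.15) and *sams-3* (-0.064 to 0.0082), none of which had passed.

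Samples with the same replicate number did not deviate together in every pair of strains (correlations of deviations between -0.457 and 0.384). Their mean correlation was below that of samples with other numbers for the *bcat-1(hh58)* strain with each other mutant strain, as with *ivd-1(tm6784)* (-0.155 beside 0.051). In all other pairs of strains it was above, as for *hecd-1(tm2371)* with the double mutant (0.235 beside -0.078) and with wild-type (0.174 beside -0.058). A replicate effect was thus visible in part of the pairs, and the numbers were not taken as pairing in the main fit. With the replicate as a block, 5 members passed in *hecd-1(tm2371)*, among them *mtrr-1*, *metr-1* and *sams-4*, which had not (adjusted p = 0.0363, 0.0328 and 0.0398 by limma, in ranges of 0.0146 to 0.579, 0.0328 to 0.356 and 0.0398 to 0.992 over the alternatives), and 5 in the double mutant against *bcat-1(hh58)*, and the interaction of *sams-1* had an adjusted p of 0.0604 by limma (range over its alternatives 0.0487 to 0.284). Exact tests with a sample left out or with paired values cannot pass the threshold, since their smallest p are 0.0571 and 0.125.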
